A study of Sus scrofa with 207 samples.

Results

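The swine leukocyte antigen genes are the major histocompatibility complex of the pig. They were followed here through the 27 probe sets whose only gene symbol starts with SLA- or is B2M or CD74, out of 23935 probe sets tested. A probe set is the group of short oligonucleotides by which the array reads 1 transcript. The 27 stood for 14 genes. Class I heavy chains had 7 probe sets for 5 genes (SLA-2, SLA-3, SLA-6, SLA-7 and SLA-8), and their light chain B2M had 9. The class II chains and partners had 10 probe sets for 7 genes (SLA-DRA, SLA-DRB1, SLA-DQA1, SLA-DQB1, SLA-DMA, SLA-DMB and SLA-DOA), and CD74 had 1. A further 8 probe sets carried an SLA symbol together with other symbols and are described apart, by their probe set names.

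The arrays came from muscle of 207 commercial crossbred pigs of the herd labelled Pix(DLxDE), killed when they weighed 110 kg on average, with 1 Affymetrix array per animal. All animals formed a single group, and the labels used here give no sex, age, sire, slaughter day, array batch or SLA type. Drip loss is the weight, as a share, that longissimus muscle sheds as fluid while suspended in the cold. It averaged 5.37 ± 2.22% (SD, n = 207). Fat area over the same muscle averaged 15.0 ± 3.15 cm2 (SD) in the animals with a value, and 8 of the 207 had none. Deposited values are log2 expression with a floor at 4, which equals 16 on the linear scale.

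Class I molecules sit on nearly all nucleated cells and show peptides from inside the cell to cytotoxic T cells. Each is a polymorphic heavy chain bound to the invariant B2M. In the pig SLA-1, SLA-2 and SLA-3 are the classical heavy chains, and SLA-6, SLA-7 and SLA-8 are non-classical ones. Class II molecules pair an alpha and a beta chain (SLA-DRA with SLA-DRB1, SLA-DQA1 with SLA-DQB1). They show peptides from outside the cell to helper T cells and are made mainly by macrophages, dendritic cells and B cells. CD74, the invariant chain, guides class II molecules to the endosome. There the DM molecule of SLA-DMA and SLA-DMB exchanges its remnant for a peptide, and in human and mouse the DO molecule, to which the SLA-DOA counterpart belongs, modulates DM. The SLA genes lie on 1 chromosome in the RefSeq table of Sscrofa11.1, and B2M and CD74 lie outside it. Classical class I and class II genes differ strongly in sequence between individuals, and a short probe binds best to the sequence it was made from.

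Of the arrays, 24 had a low median correlation with the others, down to 0.944 against a typical 0.978, and another 13 showed no signal for the spiked-in poly-A RNAs. Title numbers were grouped into 10 blocks of 100 numbers, since no batch is labelled. Blocks accounted for 2.35% to 26.4% of the variance of a member probe set, with a median of 7.46%. With 10 blocks some share arises without any block effect, and the share over all tested probe sets was not computed. Of 8 skeletal muscle markers 6 were measured, with medians of 12.71 to 14.11, as the tissue label has it. Transcripts of the liver proteins ALB and APOC3, picked after their values were seen, lay above 10 in 27 and 35 arrays and reached 14.75 and 15.19. Their r with SLA-DRA was 0.0864 and 0.124, and with SLA-2 0.0194 and 0.0511. The array with the lowest median correlation, called the least typical array below, also had the highest values of several class II genes, so correlations are given with and without it.

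The classical heavy chain genes varied widely between animals. SLA-2 (Ssc.13780.5.S1_x_at) ran from 9.72 over a median of 10.96 to 12.31 on the log2 scale. SLA-3 (Ssc.13780.9.S1_a_at) ran from 8.22 over 9.85 to 11.49, and its SD of 0.56 was larger than that of 97.5% of all tested probe sets. Between the 10th and the 90th percentile of arrays SLA-3 spanned 2.52-fold and SLA-2 spanned 1.93-fold. Neither fell into separate groups of arrays by the rule described further on.

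Among the non-classical heavy chains, SLA-8 ran from 6.58 over 8.11 to 9.21 by Ssc.23510.1.A1_s_at and from 6.79 over 7.69 to 8.50 by Ssc.13780.7.S1_at. SLA-7 (Ssc.23660.1.S1_at) ran from 4.02 over 5.53 to 6.37. SLA-6 ran from 7.02 over 7.84 to 8.87 by Ssc.13780.3.S1_at. Its other probe set, Ssc.16308.1.S1_at, stayed near the floor, between 4.00 and 5.24, with 5 arrays at it.

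B2M was the annotated gene of 9 probe sets, which differed greatly in their spread. By the one with the highest mean, Ssc.12348.1.S1_at, B2M ran from 12.06 over 12.73 to 13.53 (SD 0.27). Ssc.5896.1.S1_at varied least, with an SD of 0.17, less than all but 6.59% of the tested probe sets. Ssc.8925.1.S1_at varied most, from 7.32 over 10.41 to 12.29 with an SD of 0.83, and spanned 4.31-fold between the 10th and the 90th percentile. The array annotation gives all 9 the same gene number, while the RefSeq table holds 2 genes with the symbol B2M. Below, a probe set is called one of B2M by its annotation only, and whether all 9 read B2M was not tested.

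Among the class II chains, SLA-DRA (Ssc.222.1.S1_at) ran from 6.97 over 9.13 to 11.05 and SLA-DRB1 (Ssc.210.1.S1_a_at) from 7.95 over 10.01 to 11.51. SLA-DQA1 ran from 6.91 over 8.58 to 10.27 and SLA-DQB1 from 7.54 over 8.65 to 10.16. These 4 chains spanned 2.04-fold to 2.28-fold between the 10th and the 90th percentile of arrays.

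Among the class II partners, SLA-DMB ran from 7.16 over 8.06 to 10.30, where the next highest array was at 9.23. SLA-DMA ran from 7.47 over 8.16 to 9.43 by Ssc.13777.2.S1_at and from 6.30 over 7.04 to 9.31 by Ssc.13777.1.S1_at, where the next highest was at 8.10. SLA-DOA ran from 4.38 over 5.34 to 6.38. CD74 (Ssc.6222.1.S1_a_at) ran from 6.30 over 7.15 to 8.64, with the next highest at 8.27.

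Of the 27 probe sets, 22 had a mean over 6.10, the median of the means on the array, and 11 had an SD larger than that of 90% of the tested probe sets. The 5 dim probe sets were those of SLA-7 and SLA-DOA, Ssc.16308.1.S1_at of SLA-6, and Ssc.16211.1.A1_at and Ssc.16211.1.S1_at of SLA-DRB1. Of these, Ssc.16211.1.S1_at had 46 arrays at the floor.

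**Figure D1:**
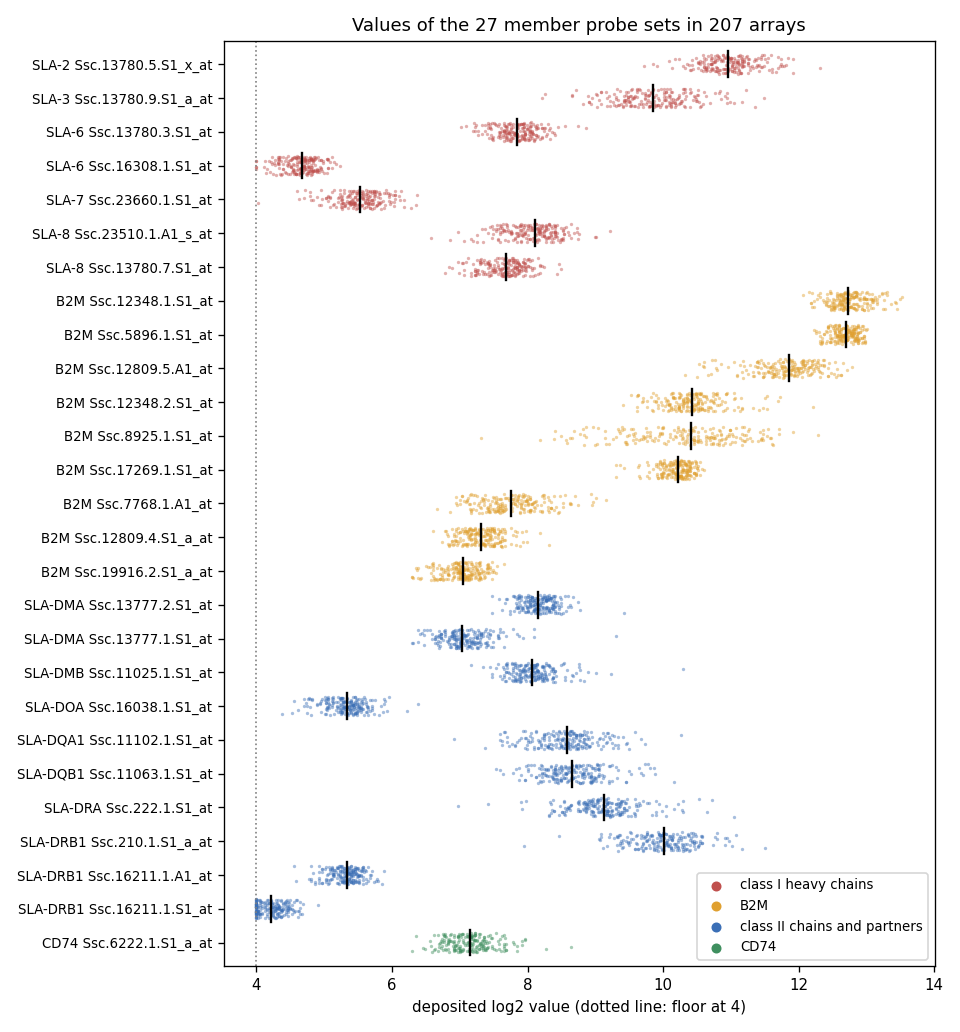
Deposited log2 value (horizontal axis) of each of the 27 member probe sets in the 207 arrays; each point is 1 array, black bars are medians, the dotted line is the floor at 4, and colours mark class I, B2M, class II and CD74. Ssc.8925.1.S1_at of B2M spreads from 7.32 to 12.29, and SLA-DMB and Ssc.13777.1.S1_at of SLA-DMA each have 1 array far to the right, at 10.30 and 9.31.

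Of the 7 class II genes, each by 1 probe set, 5 varied closely together from animal to animal. SLA-DMA was not among them by its probe set with the highest mean, while its other probe set followed them, as given below. In bulk muscle, more cells of a type and more RNA per cell cannot be told apart. For SLA-DRA, SLA-DRB1, SLA-DQA1, SLA-DQB1 and SLA-DMB, each by the probe set with its highest mean, Pearson's r in the 10 pairs lay between 0.718 and 0.875. Every one of these pairs passed (permutation test, two-sided, adjusted over all 351 pairs of member probe sets). The 5 genes were set apart by their r in these same data, so the passing of their pairs is no separate support for the group. SLA-DQA1 and SLA-DQB1, the partners of 1 heterodimer, had r = 0.875 and rho = 0.847 (adjusted p = 3.4e-05 and 3.8e-05). For both the permutation p was 1e-05, which is the smallest that 100000 permutations can give. Without the 2 arrays farthest from the median r was 0.864, centred within blocks it was 0.876, inside the 10 blocks it ran from 0.781 to 0.927, and without the least typical array it was 0.867.

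SLA-DRA and SLA-DRB1 had r = 0.814 and rho = 0.759, with the same p values. Inside blocks r ran from 0.501 to 0.944, centred within blocks it was 0.807, and without the least typical array it was 0.804. SLA-DRA with SLA-DQA1, chains that do not normally pair, had r = 0.848 and rho = 0.848 (r = 0.840 centred within blocks and 0.839 without the least typical array). SLA-DMB and SLA-DRA had r = 0.848 and rho = 0.830, and without the least typical array r was 0.862.

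CD74 varied with these chains as well. Its r was 0.634 with SLA-DRA (rho = 0.598), 0.628 with SLA-DRB1 (rho = 0.569) and 0.721 with SLA-DMB (rho = 0.662), each with adjusted p = 3.4e-05 for r. Without the least typical array these r values were 0.611, 0.603 and 0.686, and centred within blocks they were 0.677, 0.655 and 0.737. The other class II genes had lower values. The r of SLA-DOA with the rest of class II lay between 0.0962 and 0.364, and that of SLA-DMA, by its probe set with the highest mean, between 0.0962 and 0.287. Over all 21 pairs of the 7 class II genes r ran from 0.0962 to 0.875 with a median of 0.364, and 20 pairs passed.

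Among the class I heavy chains, in 10 pairs of the 5 genes r lay between 0.0153 and 0.464 with a median of 0.239, and 6 pairs passed. The difference from the class II pairs was not tested. SLA-2 and SLA-3 had the highest, r = 0.464 and rho = 0.459 (permutation p = 1e-05 each, adjusted p = 3.4e-05 and 3.8e-05). Their r was 0.453 without the 2 farthest arrays, 0.487 centred within blocks, 0.209 to 0.761 inside blocks and 0.464 without the least typical array. SLA-3 and SLA-8 had r = 0.145 and rho = 0.130, which did not pass (permutation p = 0.0359 and 0.0632, adjusted p = 0.0656 and 0.111).

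B2M, the light chain of class I, varied with its classical heavy chain and also with class II. By Ssc.12348.1.S1_at, B2M had r = 0.746 with SLA-2 (rho = 0.713), 0.537 with SLA-3 (rho = 0.470) and 0.408 with SLA-8 (rho = 0.406), each with adjusted p = 3.4e-05 for r. With SLA-DRA its r was 0.761 and its rho 0.703 (adjusted p = 3.4e-05 and 3.8e-05). Centred within blocks r was 0.763 with SLA-2 and 0.746 with SLA-DRA. Inside blocks the ranges were 0.493 to 0.907 and 0.334 to 0.906, and without the least typical array the values were 0.747 and 0.764.

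Between the classes the correlations were moderate. Over the 35 pairs of a class I heavy chain gene with a class II gene r lay between 0.0806 and 0.594 with a median of 0.314, and 31 passed. SLA-2 with SLA-DRA was the highest, at r = 0.594 and rho = 0.565 (permutation p = 1e-05 each, adjusted p = 3.4e-05 and 3.8e-05), with 0.604 centred within blocks and 0.0252 to 0.815 inside them. Of all 91 pairs of the 14 genes, 81 passed, all positive. Of all 351 pairs of probe sets 45.9% passed as positive and 23 pairs as negative. How many pairs of other probe sets would pass was not counted, so these counts alone do not set the members apart. An r of -0.158, that of Ssc.12809.5.A1_at of B2M with SLA-DRA, passed (permutation test, adjusted p = 0.0463). With all 23934 other probe sets, r of SLA-DRA had a 5th to 95th percentile range of -0.244 to 0.305. Centred within blocks, 43.9% passed as positive and 14 pairs as negative.

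**Figure D2:**
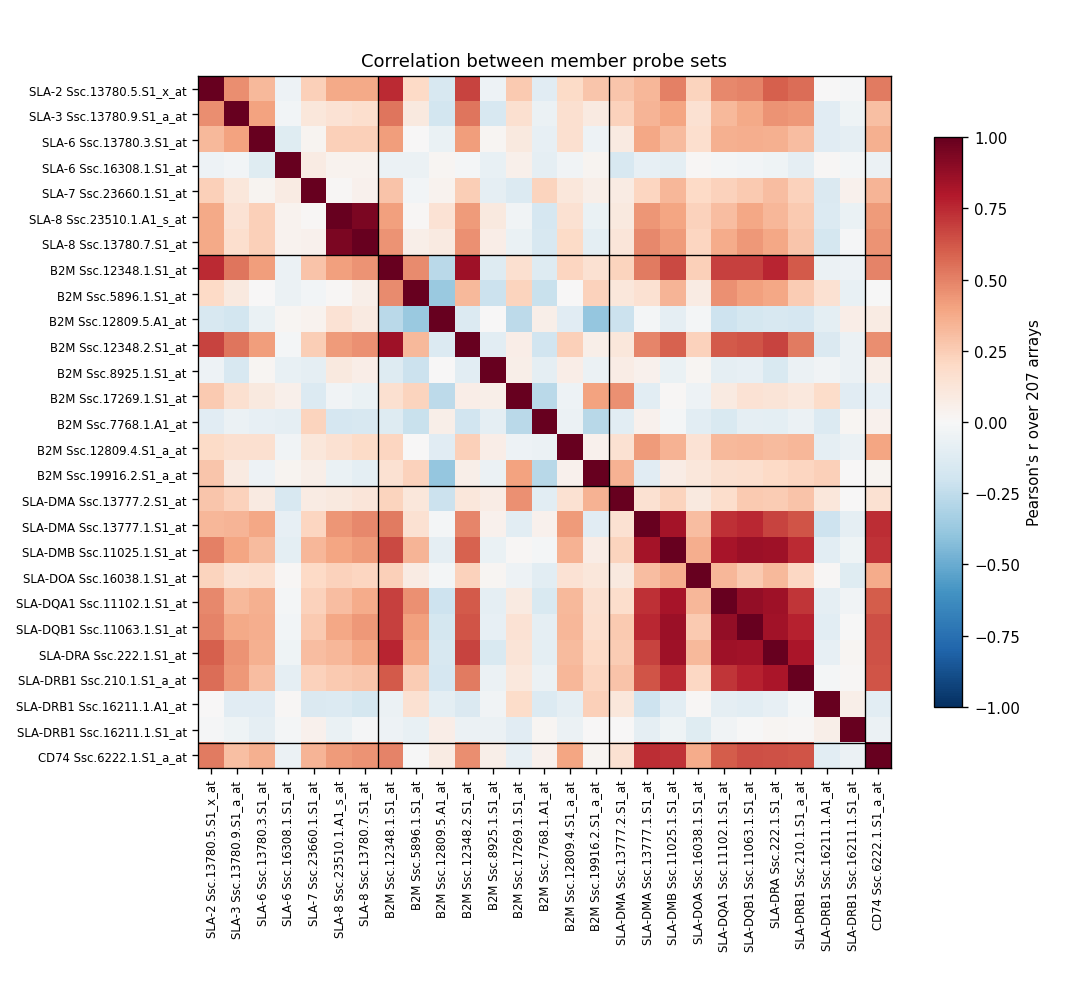
Pearson's r over 207 arrays between every pair of the 27 member probe sets, from -1 (blue) to 1 (red); black lines separate class I heavy chains, B2M, class II and CD74. The class II block holds pairs up to 0.875 beside rows near 0 for Ssc.16211.1.A1_at and Ssc.16211.1.S1_at, and the B2M block runs from -0.386 to 0.846.

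**Figure D3:**
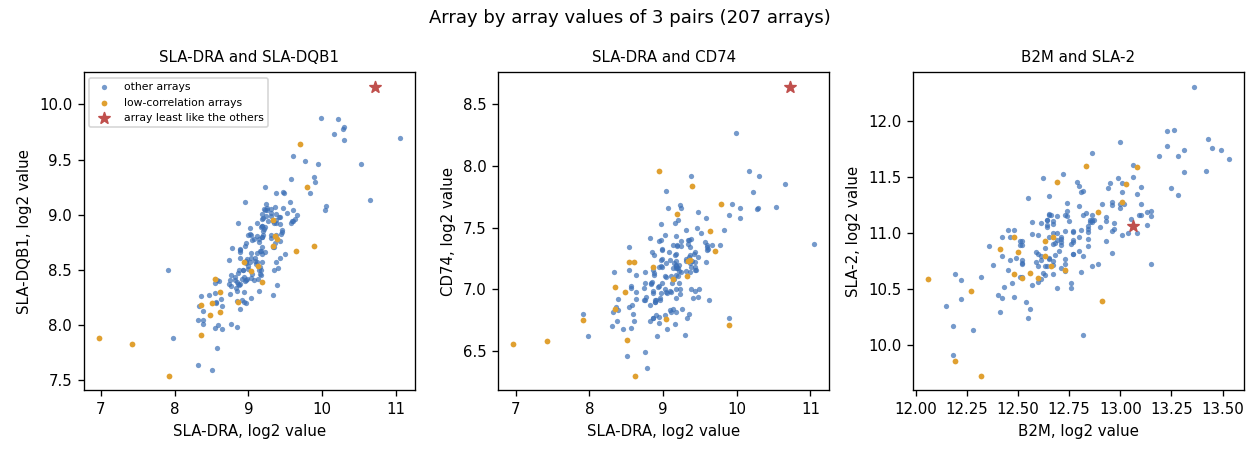
Log2 values of SLA-DRA with SLA-DQB1, SLA-DRA with CD74, and B2M (Ssc.12348.1.S1_at) with SLA-2, 1 point per array; orange points are low-correlation arrays and the star is the least typical array. Their r is 0.842, 0.634 and 0.746, and the star lies at the upper end of both class II panels and inside the cloud of the third.

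The least typical array was the highest of all for SLA-DMB, SLA-DQA1, SLA-DQB1, SLA-DRB1 and CD74 and second for SLA-DRA. SLA-DMB was at 10.30 in it, against a median of 8.06 in all other arrays, and CD74 was at 8.64 against 7.15. SLA-2 was at 11.06 in it, against a median of 10.96, which placed it 83rd. Of the macrophage markers, CD163 was at 10.27 in it against a median of 7.31 and TYROBP at 10.90 against 7.06, both the highest of all arrays, while C1QC was at 10.64 against 9.40 and placed 6th. The lysosomal protease CTSS was at 12.32 against 8.42. The B cell marker CD79B was at 4.63 against 5.43. The muscle creatine kinase CKM was at 14.22 against 14.11. Of the liver transcripts, ALB was at 10.38 against 5.75, placed 21st, and APOC3 at 11.85 against 6.59, placed 11th. The markers named here were picked after their values were seen, and not every marker of the lists was looked up in this array. The part of these markers in the class II values of the array was not tested.

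Probe sets annotated to the same gene did not always read alike. The 2 for SLA-8 had r = 0.942 and rho = 0.939 (permutation p = 1e-05 each, adjusted p = 3.4e-05 and 3.8e-05; r = 0.937 centred within blocks). The 2 for SLA-6 had r = -0.119 and rho = -0.123 and did not pass (permutation p = 0.0873 and 0.0771, adjusted p = 0.149 and 0.133). The 2 for SLA-DMA had r = 0.152 and rho = 0.221, of which r did not pass (adjusted p = 0.0547 and 0.00367). Ssc.13777.1.S1_at had r = 0.833 with SLA-DMB (rho = 0.772), with which SLA-DMA forms its dimer, against r = 0.225 (rho = 0.269) for Ssc.13777.2.S1_at, the probe set with the higher mean. Without the least typical array these were 0.791 and 0.277. After quantile normalization Ssc.13777.1.S1_at had r = 0.661 with SLA-DRA, 0.628 with SLA-DRB1, 0.707 with SLA-DQA1 and 0.736 with SLA-DQB1. For Ssc.13777.2.S1_at these were 0.234, 0.258, 0.152 and 0.229. The dim probe sets of SLA-DRB1 had r = -0.0234 and 0.00827 with Ssc.210.1.S1_a_at, and neither passed (permutation p = 0.737 and 0.907).

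In the 36 pairs of the 9 probe sets of B2M r lay between -0.386 and 0.846 with a median of -0.0247, and 10 positive and 9 negative pairs passed. Ssc.12348.1.S1_at and Ssc.12348.2.S1_at had r = 0.846 and rho = 0.796 (permutation p = 1e-05 each). Both followed the heavy chain SLA-2, at r = 0.746 and 0.673. For the other 7 r with SLA-2 lay between -0.160 and 0.278 and r with SLA-DRA between -0.158 and 0.388. Ssc.12809.5.A1_at opposed Ssc.12348.1.S1_at with r = -0.270 and rho = -0.242 (permutation p = 9.5e-05 for r).

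Signals that split the arrays into 2 groups were searched for with a mixture of 2 normal distributions. A probe set was called when that mixture beat a single normal by more than 10 in the Bayesian information criterion, its components were apart (Ashman's D over 2), each held at least 5% of the arrays, and the density had a valley. This is a description without a test, and it called 829 of the 23935 probe sets, 3.46%. Of the 27 members 2 were called. One was Ssc.16211.1.S1_at of SLA-DRB1, with 90 arrays above its valley at 4.25 and 56.5% below it, 46 of them at the floor. It was not called with Ashman's D over 3, a rule that called 1.32% of all tested probe sets.

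The other was Ssc.12809.5.A1_at, annotated to B2M, with 13 of the 207 arrays below its valley at 10.95. Of the 13 low arrays 9 were among the 13 that lacked spike-in signal, and 8 fell in 1 block. It was not called without the arrays lacking spike-in signal, after quantile normalization, or with values centred within blocks. None of SLA-2, SLA-3, SLA-DQA1, SLA-DQB1, SLA-DRA or Ssc.210.1.S1_a_at of SLA-DRB1 was called.

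Of the 8 probe sets with several symbols 4 were called, and 3 of these had wide valleys. Ssc.13780.11.S1_x_at, annotated to LOC100513601 and SLA-1, ran from the floor over 5.31 to 8.74 (SD 1.37). Of the arrays 50.7% lay below its valley at 5.50 and 49.3% above. The low arrays centred on 4.56 and the high ones on 6.85, and both kinds occurred in each of the 10 blocks, for example 17 low of 27 arrays in 1 block and 2 low of 10 in another. RefSeq lists SLA-1 among the synonyms of LOC100513601.

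Ssc.210.6.S1_x_at and Ssc.210.7.S1_x_at are both annotated to LOC106504372, for which RefSeq lists SLA-DRB as a synonym, and SLA-DRB1. Ssc.210.6.S1_x_at had 94 arrays (45.4%) below its valley at 6.52, with centres of 5.60 and 7.46. Ssc.210.7.S1_x_at had 17 arrays (8.21%) below its valley at 5.59, with centres of 4.56 and 7.97. All 17 arrays low for Ssc.210.7.S1_x_at were high for Ssc.210.6.S1_x_at. Of the others, 94 were low for Ssc.210.6.S1_x_at alone and 96 were high for both, so 0 of 207 were low for both. The labels used here give no SLA type, so what the 2 clusters stand for was not tested. These 3 probe sets were also called with Ashman's D over 3, after quantile normalization, centred within blocks, without the low-correlation arrays, and without those lacking spike-in signal.

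The fourth, Ssc.13780.11.A1_at, also annotated to LOC100513601 and SLA-1, lay between 4.00 and 5.14, with 39 arrays below its valley at 4.24, and was not called without the low-correlation arrays or centred within blocks. Of the 4 probe sets not called, Ssc.13780.4.S1_x_at (SLA-2 and SLA-3) ran from 9.76 over 11.01 to 12.18. Ssc.13780.10.S1_x_at (LOC100513601, SLA-2 and SLA-1) ran from 9.69 over 10.99 to 12.27. They followed Ssc.13780.5.S1_x_at of SLA-2 with r = 0.955 and 0.942. The _x_ in a probe set name marks probes that also match other transcripts. The probe set of SLA-2 carries it too, and how far other class I transcripts enter its values was not tested.

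**Figure D4:**
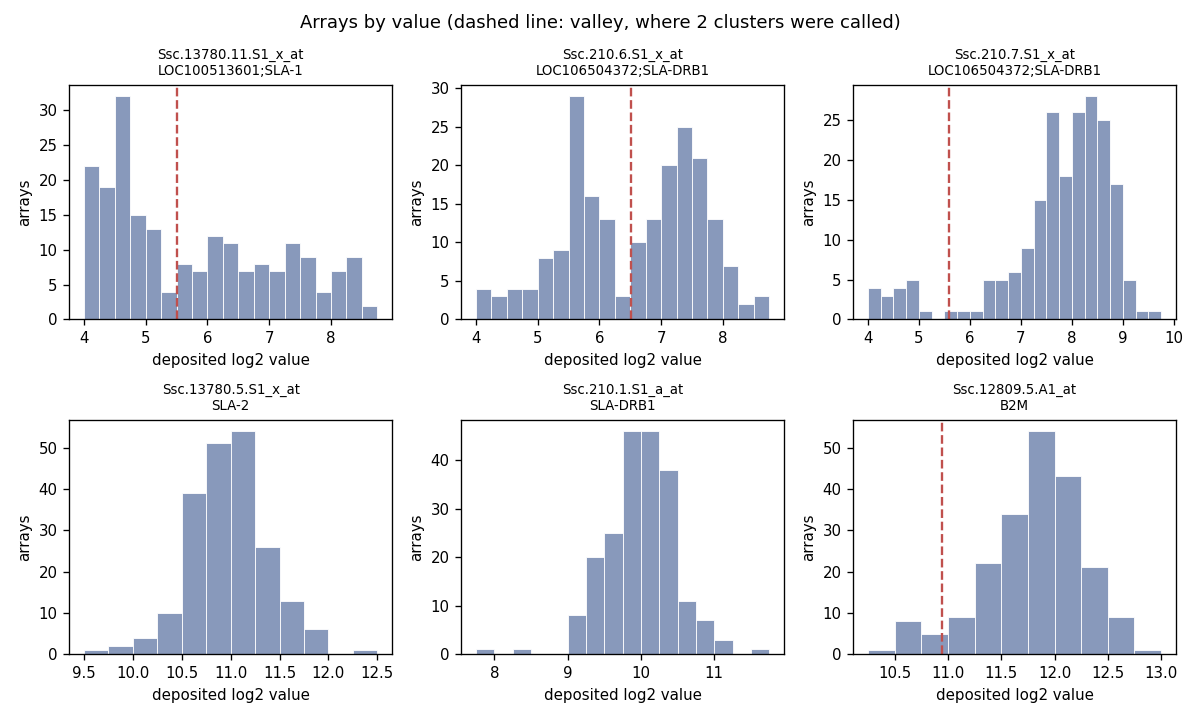
Number of arrays (vertical axis) by deposited log2 value for 6 probe sets; dashed lines are valleys where 2 clusters were called. The 3 upper panels, probe sets with several symbols, have 50.7%, 45.4% and 8.21% of the arrays below the valley, SLA-2 and Ssc.210.1.S1_a_at of SLA-DRB1 have 1 peak, and B2M by Ssc.12809.5.A1_at has 13 arrays below its valley.

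The genes whose values most resembled those of the antigen genes were picked as the 8 with the highest r over the 207 arrays, as a description. For comparison, r of all 23934 other probe sets with SLA-DRA had a median of 0.0114, a 5th to 95th percentile range of -0.244 to 0.305, and was over 0.5 in 0.476% of them. Closest to SLA-DRA was LOC106504372 (Ssc.210.2.S1_a_at) with r = 0.821, itself a class II gene by its RefSeq synonyms. It was followed by PSME2, a proteasome activator subunit, at 0.729, and the complement component C1QC at 0.722. Then came the growth factor MDK, the ganglioside activator GM2A, the complement protease C1S, ITM2C, and CTSS, which degrades the invariant chain, at 0.682 to 0.651. For each gene this search took the probe set with the highest r, while the lists below took the one with the highest mean.

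CD74 was closest to LOC106504372 at r = 0.683, then to LAPTM5, a lysosomal protein of blood cells, at 0.616, ARL6IP1 at 0.596, and the leukocyte integrin chain ITGB2 at 0.592. ARHGDIB, the class I peptide-loading protein TAPBP, the transcription factor IRF8 and GM2A followed at 0.586 to 0.575. Without the least typical array the r of ITGB2 was 0.534. B2M by Ssc.12348.1.S1_at was closest to LOC100513601 at 0.696, LOC106504372 at 0.685, PSME2 at 0.671, C1QC at 0.649, C1S at 0.648, the peptide transporter TAP1 at 0.646, the immunoproteasome subunit PSMB8 at 0.629 and C1R at 0.619. SLA-2 was closest to LOC100513601 at 0.770, both read by _x_ probe sets, and to LOC106504372 at 0.568. After them came TAP1 at 0.551, PSMB8 at 0.518 and PSME2 at 0.509.

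Lists of genes by function are given as a description as well. Of 14 genes of class I antigen processing 9 were measured, and all 9 had a positive r with SLA-DRA (0.168 to 0.729, median 0.502) and with SLA-2 (0.0802 to 0.551, median 0.296). Of 16 genes of class II processing and regulation 12 were measured, with a median r of 0.136 with SLA-DRA. CTSS had 0.615 and the lysosomal thiol reductase IFI30 had 0.572, whereas CIITA, the master activator of class II genes, had 0.0674. Of 13 genes induced by interferon gamma 8 were measured, and all 8 had a positive r with SLA-DRA (median 0.392), with the guanylate-binding protein GBP2 at 0.610, GBP1 at 0.514 and JAK2 at 0.0390.

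Markers of macrophages and dendritic cells varied with SLA-DRA, the only class II chain set against them. Of 14 such markers 10 were measured, and their r with SLA-DRA was positive for all 10 (0.0489 to 0.722, median 0.428), with AIF1 at 0.610 and C1QA at 0.584. The median was 0.330 with CD74, 0.335 with B2M by its probe set with the highest mean, and 0.159 with SLA-2. The log2 of their summed level ran from 9.75 over 10.59 to 12.89, and ITGAM was at the floor in 39 arrays. The 9 measured T and NK cell markers had a median r with SLA-DRA of 0.151, the 8 endothelial markers 0.0304, the 3 adipocyte markers 0.263, the 4 blood markers 0.0774, and CD79B, the B cell marker measured, 0.0957. The 6 muscle markers had 0.0306. The part of these markers in the variation of the class II genes was not tested.

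With drip loss, 1 of the 27 probe sets changed, against 1103 of all 23935 (4.61%, of which 464 were higher, 1.94%, and 639 lower, 2.67%). It was Ssc.7768.1.A1_at, annotated to B2M, and it ran from 6.66 over 7.76 to 9.16. For each SD more drip loss its log2 value fell by 0.119 ± 0.030 (SE over 207 arrays, 95% confidence interval -0.179 to -0.0595). The adjusted p over all probe sets was 0.0106 in limma. That is a change of -7.95% per SD. The call ended with blocks in the fit, where the slope was -0.0841 (adjusted p = 0.165) and 0.623% of all probe sets passed, and without the 24 low-correlation arrays, where it was -0.104 (adjusted p = 0.0640) and 0.831% passed. With 5 principal components in the fit the slope was -0.0227 (adjusted p = 0.857). Blocks accounted for 19.9% of the variance of this probe set.

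The other 8 probe sets of B2M did not pass for drip loss. Ssc.12348.1.S1_at had a slope of 0.011 ± 0.019 (95% confidence interval -0.0267 to 0.0487, adjusted p = 0.810), and its r with Ssc.7768.1.A1_at was -0.129 (rho = -0.124, permutation p = 0.0630 for r). Ssc.8925.1.S1_at had 0.118 ± 0.057 and Ssc.12809.5.A1_at had -0.072 ± 0.032, with 95% confidence intervals of 0.00591 to 0.230 and -0.135 to -0.00869 (adjusted p = 0.228 and 0.185). Of all 9 slopes 5 were positive.

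No heavy chain, class II gene or CD74 passed for drip loss in limma. SLA-8 had slopes of 0.066 ± 0.027 and 0.043 ± 0.021 (adjusted p = 0.146 and 0.239), and SLA-DQA1 had 0.072 ± 0.032 (adjusted p = 0.180). SLA-2 had -0.008 ± 0.028 and SLA-DRA had 0.043 ± 0.036, with 95% confidence intervals of -0.0624 to 0.0461 and -0.0267 to 0.114. CD74 had 0.011 ± 0.024 (adjusted p = 0.857). Of the 27 slopes 18 were positive, with a median of 0.0173, against a median of 0.00232 over all tested probe sets. Without the low-correlation arrays the median of the 27 was 0.00351. With 5 principal components in the fit it was -0.0111, and 7 slopes were positive. The members vary together, so their signs are not separate observations. At an unadjusted p under 0.05 there were 6 of 27, 4 positive and 2 negative, which is 22.2% against 19.3% of all tested.

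With fat area, 0 of the 27 probe sets passed in limma, against 29 of all 23935 (0.121%, with 0.046% higher and 0.0752% lower). At an unadjusted p under 0.05 there were 7, all negative, which is 25.9% against 7.07% of all tested. They were both probe sets of SLA-8, with slopes of -0.076 ± 0.027 and -0.060 ± 0.021 per SD of fat area, SLA-2 with -0.060 ± 0.028, Ssc.13780.3.S1_at of SLA-6 with -0.044 ± 0.021, SLA-DQA1 with -0.079 ± 0.033, and 2 probe sets of B2M (SE, adjusted p 0.423 to 0.666). Of the 27 slopes 20 were negative, with a median of -0.0366 against -0.00179 over all tested probe sets. By the probe set with the highest mean, 13 of the 14 genes had a negative slope, all but SLA-3 at 0.008 ± 0.039. These genes vary together, as shown above, so their signs are not separate observations. With blocks in the fit there were 6 at an unadjusted p under 0.05, which is 22.2% against 7.95% of all tested. Without the low-correlation arrays there were 5, which is 18.5% against 7.07%. With 5 principal components there were 5, of which 4 were negative, which is 18.5% against 11.3%. With blocks in the fit and the low-correlation arrays left out, a setting added after seeing the data, there was 1 of the 27. That is 3.70% against 7.29% of all tested.

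The 2 traits had slopes that did not differ past the threshold for any of the 27 in limma, against 83 of all 23935 that did (0.347%, with 0.13% higher for drip loss and 0.217% lower). At an unadjusted p under 0.05 there were 8 of 27, 7 with the drip loss slope higher and 1 lower, which is 29.6% against 12.6% of all tested. With 5 principal components in the fit there were 4, which is 14.8% against 11.5%. With blocks in the fit there were 5, which is 18.5% against 9.76%, and without the low-correlation arrays 7, which is 25.9% against 11.1%. With both changes there were 3, which is 11.1% against 9.86%. The members vary together, so they are not separate observations here either. SLA-8 came nearest: its drip loss slope minus its fat area slope was 0.135 ± 0.036 by Ssc.23510.1.A1_s_at (SE, adjusted p = 0.0585) and 0.097 ± 0.028 by Ssc.13780.7.S1_at (adjusted p = 0.0813). Ssc.23510.1.A1_s_at passed after quantile normalization (adjusted p = 0.0467), among probe sets above the median mean (0.0386) and with the 3' minus 5' control signal in the fit (0.0485). Under every other alternative 0 of the 27 passed, among them blocks, 5 principal components and leaving out the low-correlation arrays. SLA-DQA1 had a difference of 0.144 ± 0.044 (adjusted p = 0.0973).

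The 8 probe sets with several symbols did not pass for either trait or for the difference in limma. Their adjusted p ran from 0.264 to 0.956 for drip loss and from 0.703 to 0.983 for fat area. Ssc.13780.11.S1_x_at had slopes of 0.108 ± 0.094 and 0.025 ± 0.097, and Ssc.210.6.S1_x_at had 0.047 ± 0.074 and -0.137 ± 0.076, for drip loss and fat area in that order. Of the 9 and 12 measured genes of the antigen processing lists 0 passed for either trait. For drip loss 4.61% of all tested probe sets passed in limma. Of the 8 measured genes of the interferon gamma list SOCS1, an inhibitor of cytokine signalling, fell by 0.163 ± 0.049 (limma adjusted p = 0.0316). Of the marker lists only CCL5, of 9 T and NK cell markers, rose and ENG, of 8 endothelial markers, fell (limma adjusted p = 0.04996 and 0.0470). None of these 3 passed once blocks were fitted, nor once the 24 low-correlation arrays were dropped. For fat area the endothelial marker PECAM1 passed with blocks in the fit (limma adjusted p = 0.0320) but not in the main fit (0.0719). With blocks 10 of all 23935 probe sets passed as higher and 30 as lower.

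**Figure D5:**
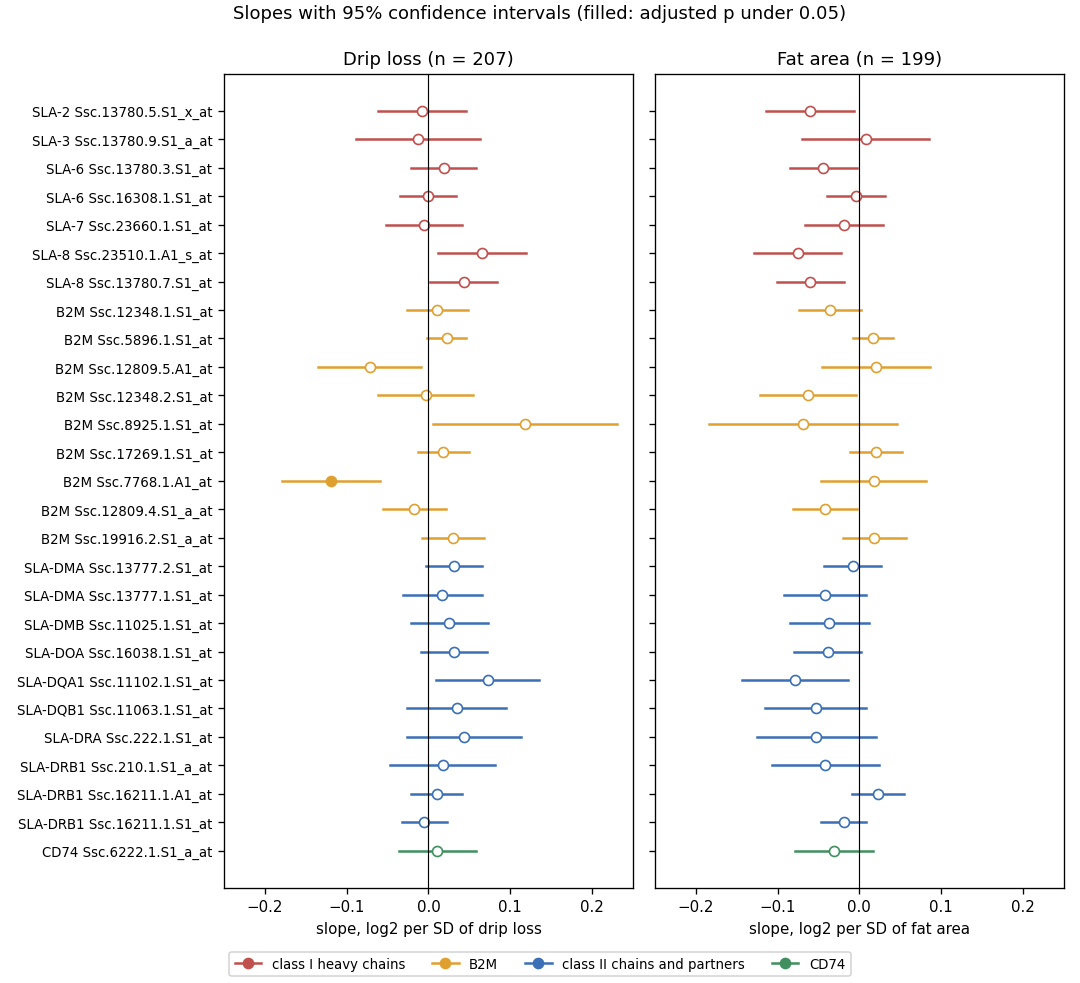
Slope of each member probe set per SD of drip loss (left) and of fat area (right) on the log2 scale, with 95% confidence intervals; filled points have a limma adjusted p under 0.05 and colours mark the class. The single filled point is Ssc.7768.1.A1_at of B2M at -0.119 for drip loss, and 20 of the 27 points lie left of 0 for fat area.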

How the data were processed

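Muscle RNA of 207 pigs was measured on 1 Affymetrix array each. The deposited values are log2 expression per probe set, processed by the authors with GCOS 1.1.1 and PLIER, per the submitters' processing notes; scaling between arrays is not given in the sources used here. Values were used as deposited. Of 24123 probe sets 188 controls were left out. Symbols came from the array annotation (10069 with 1 symbol, 198 with several, 13668 with none), and all 27 members matched RefSeq's Sscrofa11.1 table by gene number. The number of arrays limits the precision.

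Slopes per SD of a trait were fitted for every probe set with limma 3.58.1 in R 4.3.3 (lmFit, eBayes, two-sided, Benjamini-Hochberg over all 23935), and a fit with both traits tested the difference of the slopes. Correlations used 100000 permutations in Python 3.11.15, adjusted over 351 pairs. The probe set with the highest mean stood for a gene. Low-correlation arrays lay over 3 scaled MAD below the median. The named like genes are the 8 with the highest r among single-symbol probe sets brighter than the median, 1 per gene. All members are named; the list genes singled out were picked after their values were seen. The fits were tested on simulated data. The members and lists were chosen with earlier results of these data known. The p-values judge a slope or r against the variation between these animals, taken as independent. Sire, slaughter day and array batch are not labelled, so that independence was not tested. No sequences were used here.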

Additional observations from a re-analysis of the deposited data

How the results depend on the processing

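The alternatives were quantile normalization, only probe sets above the median mean, the number series, blocks, 5 principal components, the other trait or the 3' minus 5' control signal as covariates, normal scores, trend and robust, and leaving out the 2 farthest animals, the low-correlation arrays or the arrays lacking spike-in signal. Leaving out the least typical array, and the low-correlation arrays together with blocks, were added after seeing the data. The count of members passing for drip loss, 1, became 0 in limma with blocks, with 5 principal components, without the low-correlation arrays, and with both (3, 3, 4 and 4 of 27 at an unadjusted p under 0.05, where 13.0%, 7.61%, 13.0% and 10.6% of all tested had one), and Ssc.7768.1.A1_at then had slopes of -0.0841, -0.0227, -0.104 and -0.0748. Fewer arrays entered 2 of these fits. For fat area the count was 0 in limma under every alternative. For the difference it became 1, SLA-8, under quantile normalization, above the median mean and with the 3' minus 5' signal. Negative correlations numbered 14 when centred within blocks, against 23, and positive ones stayed between 43.02% and 48.4% of the 351 pairs. Members with 2 clusters numbered 1 with Ashman's D over 3, after quantile normalization, without the arrays lacking spike-in signal and centred within blocks. Slopes that did not pass changed sign for drip loss: Ssc.12348.1.S1_at of B2M had -0.0051 with blocks, -0.0255 with 5 principal components, -0.0033 without the low-correlation arrays and -0.0192 with both changes, and SLA-DRA had -0.0310 with 5 principal components and -0.0174 with both; the cause was not tested. Signs were followed in this way for chosen slopes of B2M, SLA-2, SLA-8, SLA-DRA and SLA-DQA1 only. The others of these kept their direction and, but for those given above, their side of the threshold. Over all 27 members 18 drip loss slopes were positive in the main fit, against 7 with 5 principal components and 13 with both changes. All 45 recomputed correlations of 9 gene pairs kept their sign. No paired analysis was possible because all animals form 1 group. Values at the floor limit what Ssc.16211.1.S1_at and Ssc.16308.1.S1_at can show.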

Other observations

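The least typical array was also the highest for SPP1, a secreted phosphoprotein of activated macrophages, at 13.52 against a median of 7.24 in all other arrays, where the highest was 13.43. IFI30 was at 11.76 in it, against a median of 7.94, FCER1G at 10.55 against 7.39 and AIF1 at 9.39 against 6.52, each the highest of all arrays. The T cell marker CD3E was at 5.15 against 5.04. The animal had a drip loss of 5.66% and a fat area of 11.4 cm2. These genes were picked after their values were seen.

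The low ends of the class II genes were not all in 1 array. SLA-DRA and SLA-DRB1 were lowest in the same low-correlation array, at 6.97 and 7.95, and SLA-DQA1 and SLA-DQB1 in another low-correlation array, at 6.91 and 7.54.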
